A study of Mus musculus with 30 samples.

Results

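The genes of the hypoxia response described here were 10 of the 55416 gene IDs counted in mouse fracture callus: Hif1a, Epas1, Vegfa, Adm, Adm2, Bnip3, Ankrd37, Egln3, Ndrg1 and Car9. Each symbol matched 1 Ensembl ID. The list follows known roles in the hypoxia response, but it was drawn up with earlier results of these data known. Counts over it are thus not independent of these data. Within it, Vegfa and Adm2 were picked because they fall in the knockout. The values of these 2 genes are therefore given as a description with no test, and the other 8 genes were tested.

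Non-stabilized closed fractures of the tibia were made in adult mice, and total RNA of the fracture callus, depleted of ribosomal and beta globin RNA, was sequenced at 3, 6, 10 and 14 days post fracture (dpf). At 3-dpf the tissue was taken from around the fracture site, so the tissue sampled and the time cannot be told apart in changes from 3- to 6-dpf. Apex1 encodes an enzyme of base excision repair that is also a redox regulator of transcription factors. In the Apex1 KO mice (Prrx1-Cre+;Apex1C/C), Cre acts in limb mesenchyme from the limb bud on, so blood, vessel and muscle cells of the callus keep the gene. The WT mice were littermates that could carry 1 floxed allele with Cre (Prrx1-Cre+/-;Apex1C/+) or floxed alleles without Cre (Apex1C/C, Apex1C/+). There were 4 WT and 4 Apex1 KO samples at 3-dpf, 5 and 3 at 6-dpf, 4 and 3 at 10-dpf, and 4 and 3 at 14-dpf. Both sexes were present in every group but one: at 14-dpf all 3 Apex1 KO samples were female, as was 1 of the 4 WT samples (replicate 1).

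Cells sense oxygen through prolyl hydroxylases (the EGLN enzymes), which mark the alpha subunits of the hypoxia-inducible factors (HIF) for destruction through VHL. When oxygen falls, HIF-1 alpha (Hif1a) and HIF-2 alpha (Epas1) persist, pair with ARNT and switch on genes for glycolysis, pH control, mitophagy and vessel growth. Cartilage of the growth plate and of the callus has no vessels, and HIF-1 is known to be needed there for chondrocyte survival, while VEGFA from maturing chondrocytes draws in vessels. HIF activity is set mainly by the stability of the protein, which RNA sequencing does not measure.

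HIF binds short sites with the core ACGTG or GCGTG. The 250 bases before the start of each gene's canonical transcript in GENCODE were read from GRCm39, the build of the counts, for 21627 protein-coding genes, and both cores were searched on both strands. For Hif1a, Epas1, Ankrd37 and Ndrg1 that start lies inside the gene's outer bounds, which other transcripts set. Of these promoters, 17% held ACGTG, 31.2% held GCGTG and 41.3% held at least 1 of them. Among the 10 members, 7 held at least 1 core. The 6 promoters printed here belong to the members whose Apex1 KO values at 6-dpf all lay below the WT values, with the cores in capitals, read 5′ to 3′ on the gene's strand:
Vegfa (chr17:46343310-46343559, minus strand): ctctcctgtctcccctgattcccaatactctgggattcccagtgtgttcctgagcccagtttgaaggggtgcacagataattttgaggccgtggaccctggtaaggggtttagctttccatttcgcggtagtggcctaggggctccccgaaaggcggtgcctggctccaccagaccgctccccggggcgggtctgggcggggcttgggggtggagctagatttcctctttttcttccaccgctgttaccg
Adm (chr7:110226608-110226857, plus strand): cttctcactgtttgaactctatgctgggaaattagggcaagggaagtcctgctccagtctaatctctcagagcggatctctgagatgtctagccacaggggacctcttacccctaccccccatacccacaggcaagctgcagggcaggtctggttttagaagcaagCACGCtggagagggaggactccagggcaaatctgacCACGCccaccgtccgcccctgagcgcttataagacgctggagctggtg
Adm2 (chr15:89206673-89206922, plus strand): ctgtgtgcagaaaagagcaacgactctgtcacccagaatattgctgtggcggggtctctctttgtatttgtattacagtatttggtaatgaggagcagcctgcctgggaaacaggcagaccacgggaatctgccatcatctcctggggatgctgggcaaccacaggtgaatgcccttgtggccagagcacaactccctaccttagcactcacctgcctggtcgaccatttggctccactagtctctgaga
Bnip3 (chr7:138511254-138511503, minus strand): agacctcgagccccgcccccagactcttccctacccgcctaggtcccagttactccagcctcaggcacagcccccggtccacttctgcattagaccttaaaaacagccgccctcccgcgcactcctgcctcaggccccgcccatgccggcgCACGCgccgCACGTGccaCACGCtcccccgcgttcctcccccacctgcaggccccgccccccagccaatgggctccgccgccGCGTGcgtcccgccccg
Ankrd37 (chr8:46452906-46453155, minus strand): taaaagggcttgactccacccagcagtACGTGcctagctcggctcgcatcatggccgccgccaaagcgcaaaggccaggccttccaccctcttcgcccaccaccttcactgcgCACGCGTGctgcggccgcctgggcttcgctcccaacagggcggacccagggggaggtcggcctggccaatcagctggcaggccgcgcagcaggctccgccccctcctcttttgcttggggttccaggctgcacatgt
Car9 (chr4:43506716-43506965, plus strand): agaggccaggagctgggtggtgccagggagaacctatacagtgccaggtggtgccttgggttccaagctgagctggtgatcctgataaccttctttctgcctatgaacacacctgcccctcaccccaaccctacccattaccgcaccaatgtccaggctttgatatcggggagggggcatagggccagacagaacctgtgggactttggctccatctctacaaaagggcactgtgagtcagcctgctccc

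Bnip3 held 5 matches within the 99 bases before its start, among them ACGTG on both strands, which overlap as CACGTG. Adm held GCGTG at 2 places on the opposite strand, 80 and 44 bases before the start at their near ends. Ankrd37 held 3 matches, of which 2 overlapped. The windows of Vegfa, Adm2 and Car9 held no match, which says only that these letters are not in these 250 bases. Outside the printed set, Hif1a held 2 matches of 1 palindrome, Epas1 1, Egln3 1 and Ndrg1 3. A match is a description of letters, not a bound site.

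**Figure D1:**
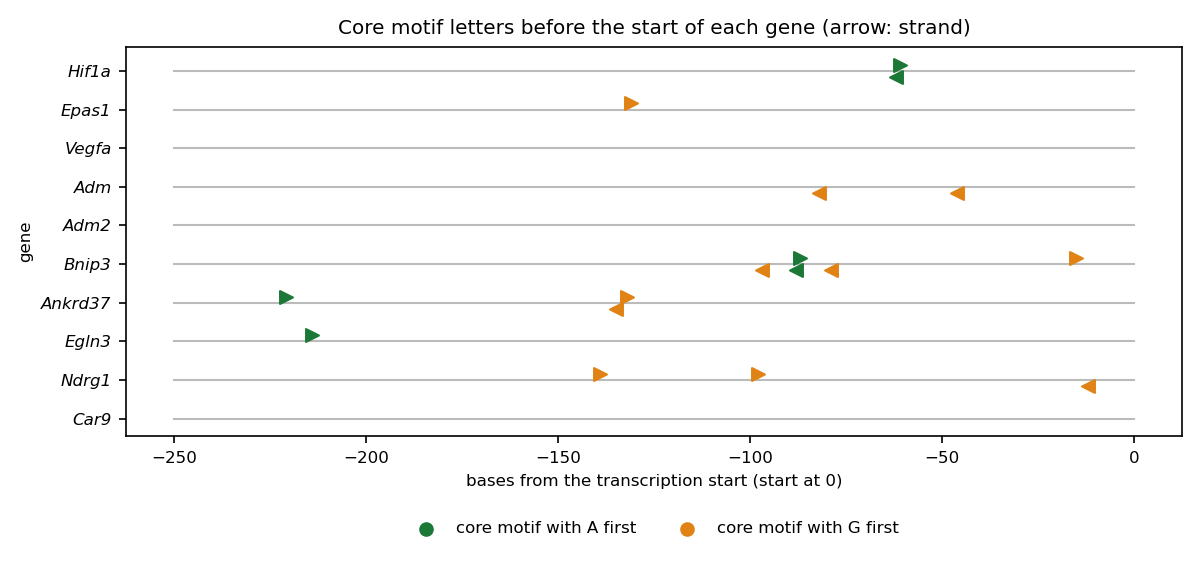
Matches to the core motif in the 250 bases before the annotated start of each of the 10 genes, with the distance from the start in bases on the x axis and 1 row per gene. Arrows point along the strand of the match and colours give the core, ACGTG (A first) or GCGTG (G first). Bnip3 has 5 matches, and Vegfa, Adm2 and Car9 have none.

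The library totals ran from 18334389 to 43111491 counts on genes. Levels are CPM, counts scaled to a common library total after TMM over all 30 libraries. Differences are log2 fold changes with standard errors (SE) from edgeR (quasi-likelihood, sex as covariate), called at an adjusted p below 0.05. As a check of the labels, Apex1 ranged from 20.7 to 28.9 CPM in WT and 15.1 to 15.9 CPM in Apex1 KO at 6-dpf, from 16.95 to 27.5 CPM and 14.0 to 16.8 CPM at 10-dpf, and from 19.8 to 27.2 CPM and 14.2 to 18.6 CPM at 14-dpf, with no overlap at these times. At 3-dpf WT held 26.5 to 33.1 CPM and Apex1 KO 18.4, 29.1, 27.6 and 34.6 CPM, so that Apex1 does not tell the genotypes apart there, and the library labelled Apex1 KO replicate 4 lay above every WT library. Callus markers were present: those of cartilage, bone and vessels were counted in every library, apart from Matn1, which was at 0 in 3 of the 4 WT libraries at 3-dpf. When libraries were scaled by their totals instead, the median difference of all genes moved from 0.01 to 0.20 at 6-dpf and from 0.04 to 0.31 at 14-dpf, and the calls at 6-dpf from 1075 higher and 1137 lower to 2780 and 814.

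At 6-dpf in WT, per kilobase of exon, the mean levels in order were 69.0 CPM for Hif1a, 33.9 for Epas1, 29.9 for Bnip3, 22.1 for Vegfa, 13.7 for Ndrg1, 11.9 for Adm, 8.32 for Egln3, 5.85 for Car9, 2.96 for Adm2 and 1.45 for Ankrd37. From 3- to 6-dpf, 4 of the 8 genes other than Vegfa and Adm2 rose in WT (Epas1, Adm, Bnip3 and Car9) and none fell. Of all genes tested, 30.5% changed and 15.4% rose. From 10- to 14-dpf, 3 of these 8 fell in WT (Adm, Bnip3 and Car9) and Ndrg1 rose, where 11.1% of all genes changed, 4.92% fell and 6.19% rose.

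**Figure D2:**
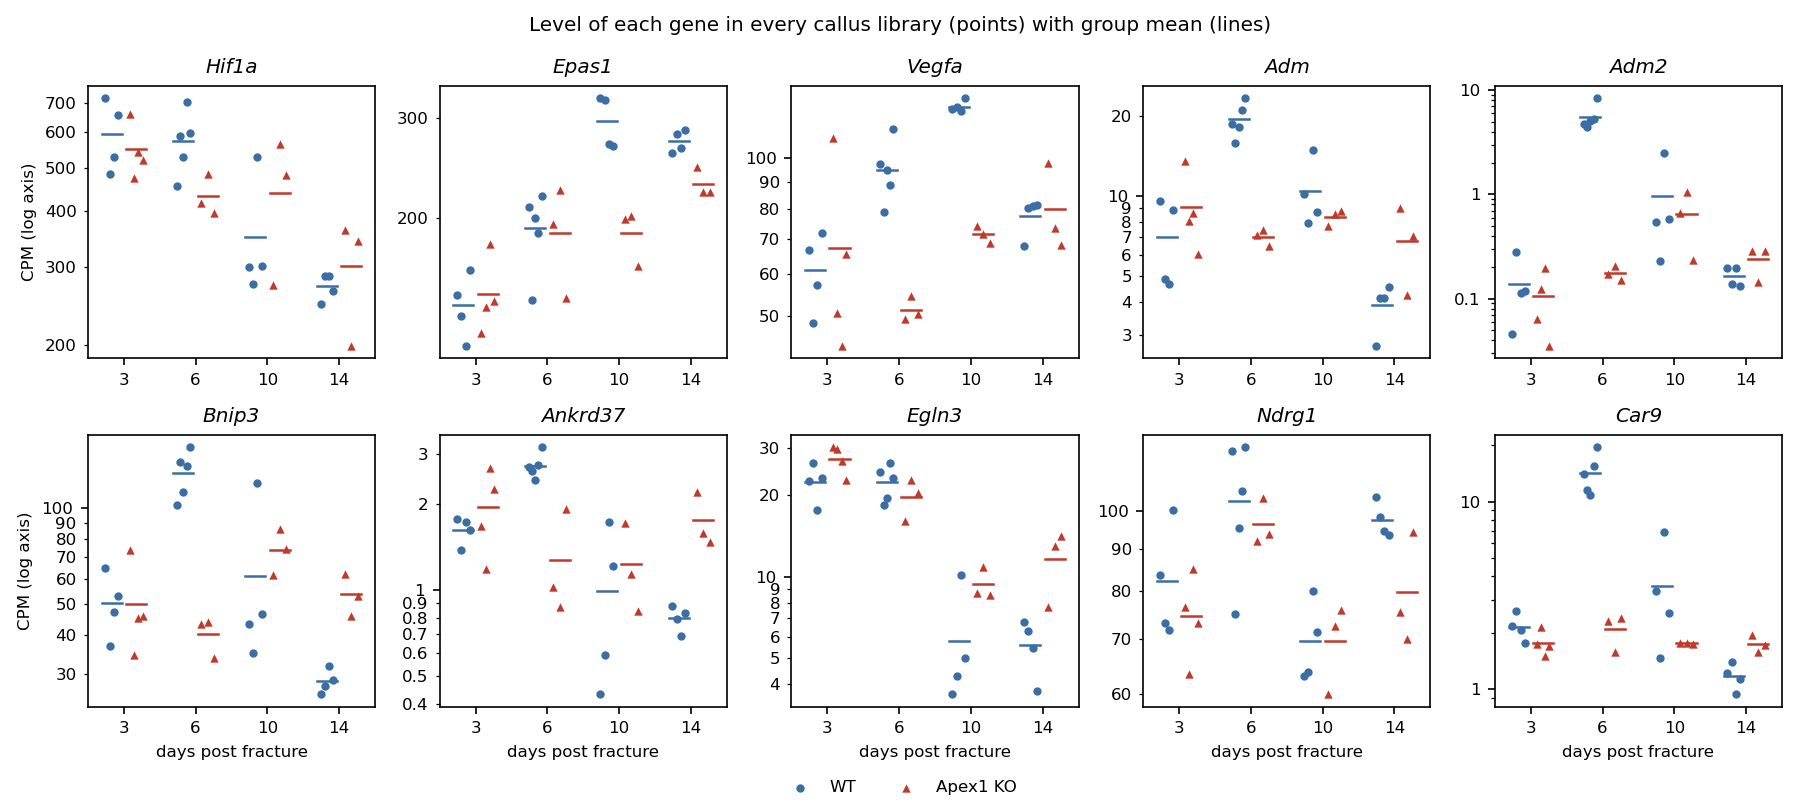
Level of each of the 10 genes in every library in CPM (log axis) against days post fracture, with WT as blue circles, Apex1 KO as red triangles and lines at the group means. At 6-dpf the Apex1 KO values of Vegfa, Adm, Adm2, Bnip3, Ankrd37 and Car9 all lie below the WT values, and WT replicate 3 at 10-dpf is the high blue point of Hif1a, Adm, Adm2, Bnip3 and Car9.

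Of the HIF alpha subunits among the members, Epas1 was called lower in Apex1 KO at 10-dpf and Hif1a at no time. Hif1a, the broadly expressed oxygen-regulated subunit, lies on chr12:73948149-73996321. Its level in WT was 716, 485, 528 and 656 CPM at 3-dpf and 455, 589, 530, 704 and 599 CPM at 6-dpf. In Apex1 KO it was 661, 475, 543 and 519 CPM at 3-dpf and 416, 483 and 395 CPM at 6-dpf. The 6-dpf groups overlapped only through WT replicate 1. The log2 difference at 6-dpf was -0.44 (SE 0.13, adjusted p = 0.0662, edgeR), and without that WT library it was -0.48 with an adjusted p of 0.0472. Taking out the lowest WT value widens the gap by itself, so that fit adds no evidence. With all libraries the difference was called by DESeq2 (adjusted p = 0.0107) and by edgeR with no filter (0.0288). The other 12 of 15 alternatives did not call it. Differences were as small as -0.25 and adjusted p as high as 0.350. At 10-dpf WT held 299, 275, 527 and 302 CPM and Apex1 KO 273, 565 and 482 CPM, and at 14-dpf the values were 248 to 286 CPM in WT and 200 to 362 CPM in Apex1 KO. Hif1a was not called in any of the 4 genotype comparisons. At 14-dpf, where its difference was 0.31, only 1 of 13 alternatives called it higher, the fit without Apex1 KO replicate 2 (0.53, adjusted p = 0.00694). Leaving out that library raises the difference by itself, so this fit adds no evidence either.

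Epas1, the subunit best known from endothelium and from hypertrophic chondrocytes, lies on chr17:87061087-87140838. It rose in WT from 119 to 161 CPM at 3-dpf to 143 to 219 CPM at 6-dpf (log2 change 0.39, SE 0.14, adjusted p = 0.0473, edgeR), a call that was lost in 10 of the 16 fits that left out 1 library, with library size alone (0.15, adjusted p = 0.331) and with no filter (adjusted p = 0.0892). At 10-dpf the levels were 325, 322, 269 and 267 CPM in WT and 199, 201 and 164 CPM in Apex1 KO. All Apex1 KO values lay below all WT values, and Epas1 fell (log2 difference -0.60, SE 0.10, adjusted p = 0.0167). It was the only one of the 8 tested members called at 10-dpf, where 6.46% of all genes were called and 3.44% called lower. Without WT replicate 1 or 2 or Apex1 KO replicate 1 its adjusted p was 0.0625, 0.0593 and 0.104. At 14-dpf WT held 260 to 285 CPM and Apex1 KO 222 to 245 CPM without overlap, with a log2 difference of -0.15 (SE 0.11, adjusted p = 0.398); with library size alone that difference was 0.12.

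The secreted factors were lower in Apex1 KO at 6-dpf. Vegfa encodes the main growth factor of vessel sprouting and lies on chr17:46327919-46343309. In WT it measured 66.7, 48.4, 57.3 and 72.0 CPM at 3-dpf, 97.5, 78.9, 95.0, 89.1 and 114 CPM at 6-dpf, 124, 125, 123 and 130 CPM at 10-dpf, and 67.8, 80.5, 81.0 and 81.5 CPM at 14-dpf. The choice of Vegfa rests on its WT values too, so its changes in WT are also given with no test: 0.64 from 3- to 6-dpf (SE 0.21), or 0.40 with library size alone, and -0.72 from 10- to 14-dpf (SE 0.10) on the log2 scale. All 5 WT libraries of 6-dpf lay above the 4 of 3-dpf, and all 4 of 10-dpf above those of 14-dpf.

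In Apex1 KO the Vegfa values lay lower at 6- and 10-dpf. They were 109, 50.7, 43.8 and 65.6 CPM at 3-dpf, 49.2, 54.5 and 50.3 CPM at 6-dpf, 74.4, 71.6 and 69.0 CPM at 10-dpf, and 97.8, 73.5 and 68.4 CPM at 14-dpf. At 6- and 10-dpf every Apex1 KO library lay below every WT library, as it did for 11.9% and 10.5% of all genes, and at 3- and 14-dpf the groups overlapped. Since Vegfa was chosen for this fall, its differences are a description: -0.02 at 3-dpf (SE 0.25), -0.81 at 6-dpf (SE 0.11), -0.80 at 10-dpf (SE 0.07) and 0.26 at 14-dpf (SE 0.18) on the log2 scale. The last was 0.53 with library size alone and 0.08 with no sex term. In the joint fit of both times the differences at 3- and 6-dpf were -0.99 apart (SE 0.32). From 3- to 6-dpf the Apex1 KO change was -0.36 (SE 0.24), and without replicate 1 of 3-dpf, the highest of that group, -0.04. The WT mean was 1.85 times the Apex1 KO mean at 6-dpf and 1.75 times at 10-dpf. In bulk callus, fewer cells of a type and less RNA per cell cannot be told apart.

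Adm encodes adrenomedullin, a peptide that widens vessels and stabilises endothelium, and lies on chr7:110226858-110229027. In WT it measured 9.60, 4.86, 4.67 and 8.85 CPM at 3-dpf and 18.7, 15.9, 18.3, 21.1 and 23.4 CPM at 6-dpf. In Apex1 KO it measured 13.6, 8.05, 8.64 and 6.04 CPM at 3-dpf and 7.11, 7.43 and 6.47 CPM at 6-dpf. The 6-dpf groups were apart, with a WT mean 2.78 times the Apex1 KO mean. Adm rose in WT from 3- to 6-dpf (log2 change 1.50, SE 0.24, adjusted p = 0.00027), was lower in Apex1 KO at 6-dpf (log2 difference -1.42, SE 0.14, adjusted p = 0.000876), and its genotype differences at 3- and 6-dpf differed from each other (-1.84, SE 0.36, adjusted p = 0.0204, edgeR). The last call was lost without WT replicate 2 or 3 of 3-dpf or Apex1 KO replicate 3 of 6-dpf, with adjusted p of 0.0518, 0.0556 and 0.0718.

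At the later times the groups of Adm overlapped. At 10-dpf WT held 10.1, 7.90, 14.9 and 8.70 CPM and Apex1 KO 7.73, 8.54 and 8.76 CPM. At 14-dpf WT held 2.73, 4.13, 4.11 and 4.55 CPM and Apex1 KO 8.99, 4.23 and 7.09 CPM. In WT Adm fell from 10- to 14-dpf (log2 change -1.54, SE 0.23, adjusted p = 0.0013), and in Apex1 KO the change was -0.04 (SE 0.28, adjusted p = 0.969). The difference between the genotypes at 14-dpf was 1.34 (SE 0.41, adjusted p = 0.0763), with 1 Apex1 KO library among the WT values. Without Apex1 KO replicate 2, the library within the WT range, it was 1.58 with an adjusted p of 0.00483. Taking out the lowest Apex1 KO value widens the gap by itself, so this fit adds no evidence. It was also called by DESeq2 (adjusted p = 0.0187), with library size alone (0.0373), with no sex term (0.0359), with no filter (0.0285) and with all samples in one model (0.00826). The other 7 of 13 alternatives left it uncalled, with adjusted p up to 0.138.

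Adm2 encodes adrenomedullin 2 (intermedin), which acts on the same receptors, and lies on chr15:89206923-89209380. It was low in every group except WT at 6-dpf. In WT it measured 0.0455, 0.282, 0.113 and 0.118 CPM at 3-dpf, 4.78, 4.43, 5.10, 5.26 and 8.34 CPM at 6-dpf, 0.540, 0.228, 2.49 and 0.583 CPM at 10-dpf, and 0.131 to 0.198 CPM at 14-dpf. The WT change from 3- to 6-dpf was 5.26 on the log2 scale (SE 0.37), given with no test for the same reason as for Vegfa. The WT change from 10- to 14-dpf was -2.61 (SE 0.68), and -1.48 without WT replicate 3 of 10-dpf.

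In Apex1 KO, Adm2 measured 0.171, 0.204 and 0.150 CPM at 6-dpf, or 5 to 7 counts per library, and stood at 0.0353 to 0.198 CPM at 3-dpf. The WT mean at 6-dpf was 31.9 times the Apex1 KO mean (log2 difference -4.85, SE 0.33), which is a description because Adm2 was chosen for it. The Apex1 KO change from 3- to 6-dpf was 0.69 (SE 0.52), or -4.57 (SE 0.68) from the WT change. At 10-dpf the Apex1 KO values of 0.657, 1.06 and 0.234 CPM lay inside the WT range, and the difference of -0.56 (SE 0.76) was 0.48 without WT replicate 3. At 3- and 14-dpf Adm2 was too low to enter the genotype fits.

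Among the HIF targets that act inside the cell or at its surface, Car9 differed most. Car9 encodes carbonic anhydrase IX, a membrane enzyme that exports acid, and lies on chr4:43506966-43513729. At 6-dpf it measured 14.0, 11.6, 10.8, 15.5 and 19.5 CPM in WT and 2.32, 1.57 and 2.41 CPM in Apex1 KO. The 2 groups were far apart, with a WT mean 6.79 times the Apex1 KO mean. Car9 was lower in Apex1 KO (log2 difference -2.69, SE 0.24, adjusted p = 0.000531, edgeR). At 3-dpf the levels were 1.76 to 2.60 CPM in WT and 1.50 to 2.15 CPM in Apex1 KO, and the differences at 3- and 6-dpf differed from each other by -2.44 (SE 0.31, adjusted p = 0.00167). Car9 rose in WT from 3- to 6-dpf (2.68, SE 0.21, adjusted p = 2.54e-07) and fell from 10- to 14-dpf (-1.66, SE 0.35, adjusted p = 0.00892). In Apex1 KO all 13 libraries lay between 1.50 and 2.41 CPM. At 10-dpf WT held 3.35, 1.46, 6.85 and 2.56 CPM and Apex1 KO 1.73 to 1.77 CPM, a difference of -1.04 (SE 0.45, adjusted p = 0.211). Without WT replicate 3 of 10-dpf that difference was -0.47 and the WT fall to 14-dpf -1.07 (adjusted p = 0.0459).

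Bnip3 encodes a protein of the outer mitochondrial membrane that starts mitophagy and lies on chr7:138490690-138511253. At 6-dpf it measured 103, 139, 112, 135 and 156 CPM in WT and 43.3, 43.8 and 33.7 CPM in Apex1 KO. No library of one group reached the other, and Bnip3 was lower in Apex1 KO (log2 difference -1.66, SE 0.16, adjusted p = 0.000623, edgeR). At 3-dpf WT held 36.8 to 64.8 CPM and Apex1 KO 34.4 to 73.7 CPM. Bnip3 rose in WT from 3- to 6-dpf (1.35, SE 0.21, adjusted p = 0.000211), and the Apex1 KO change was -0.27 (SE 0.23, adjusted p = 0.479). The differences at 3- and 6-dpf differed from each other by -1.63 (SE 0.31, adjusted p = 0.0199), a call lost without WT replicate 3 of 3-dpf (adjusted p = 0.0529) or Apex1 KO replicate 3 of 6-dpf (adjusted p = 0.0718).

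At 14-dpf Bnip3 was higher in Apex1 KO. In the fit with sex, genotype differences at 14-dpf rest on WT replicate 1, the only WT female. That library held the lowest WT value of Bnip3. WT held 25.9, 27.5, 31.8 and 28.8 CPM and Apex1 KO 61.9, 45.6 and 53.1 CPM, without overlap (log2 difference 1.07, SE 0.18, adjusted p = 0.0106, edgeR). Of the 8 tested members it was the only one called at 14-dpf, where 11.3% of all genes were called and 4.28% called higher. With no sex term 5 of the 8 were called, Adm, Bnip3, Ankrd37 and Egln3 higher and Epas1 lower, but so were 6849 genes in place of 2289. Values lay apart without overlap for 5 of the 8, higher for Bnip3, Ankrd37, Egln3 and Car9 and lower for Epas1, where 18.5% of all genes lay higher and 23.4% lower. In WT it fell from 10- to 14-dpf (-1.18, SE 0.27, adjusted p = 0.0155), with a change of -0.66 without WT replicate 3 of 10-dpf (adjusted p = 0.00848) and with an adjusted p of 0.0545 with no filter, while the Apex1 KO change was -0.05 (SE 0.33, adjusted p = 0.963). The genotype differences at 10- and 14-dpf differed by 1.13 (SE 0.44), which was not called (adjusted p = 0.299).

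Ankrd37, a small ankyrin-repeat protein and reported direct HIF-1 target, lies on chr8:46449939-46458744. At 6-dpf it measured 2.69, 2.60, 2.42, 2.73 and 3.17 CPM in WT and 1.03, 0.874 and 1.93 CPM in Apex1 KO. The groups were apart and Ankrd37 was lower in Apex1 KO (log2 difference -1.10, SE 0.30, adjusted p = 0.0452, edgeR). That call was near the threshold: 7 of the 8 fits that left out 1 library lost it (adjusted p up to 0.236), as did library size alone (0.0906) and the replicate number as a block (0.149). At 3- and 10-dpf the groups overlapped, at 1.38 to 1.77 CPM in WT and 1.19 to 2.66 CPM in Apex1 KO at 3-dpf and 0.432 to 1.74 CPM and 0.843 to 1.72 CPM at 10-dpf. At 14-dpf WT held 0.693 to 0.876 CPM and Apex1 KO 1.47 to 2.20 CPM, with a difference of 1.03 (SE 0.41, adjusted p = 0.148).

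Egln3, the prolyl hydroxylase that HIF itself induces, lies on chr12:54225767-54250673. It kept a high level in both genotypes early on, at 17.6 to 26.3 CPM in WT and 22.7 to 30.1 CPM in Apex1 KO at 3-dpf and at 18.4 to 26.4 CPM and 16.1 to 22.7 CPM at 6-dpf. At 10-dpf WT held 3.67, 4.29, 10.1 and 4.98 CPM and Apex1 KO 8.69, 10.9 and 8.53 CPM. At 14-dpf WT held 3.76 to 6.81 CPM and Apex1 KO 7.69 to 14.1 CPM, without overlap. The differences of 0.67 at 10-dpf (SE 0.28, adjusted p = 0.186) and 0.79 at 14-dpf (SE 0.41, adjusted p = 0.258) were not called.

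Ndrg1, a stress-response protein induced by hypoxia and differentiation, lies on chr15:66801166-66841835. It was not called between the genotypes at any time, and the groups overlapped, at 75.0 to 119 CPM in WT and 91.9 to 104 CPM in Apex1 KO at 6-dpf. In WT it rose from 63.2 to 80.0 CPM at 10-dpf to 93.6 to 104 CPM at 14-dpf (log2 change 0.45, SE 0.10, adjusted p = 0.0129, edgeR), opposite to Adm, Bnip3 and Car9. Without WT replicate 1 of 14-dpf that change was 0.32 with an adjusted p of 0.0901.

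**Figure D3:**
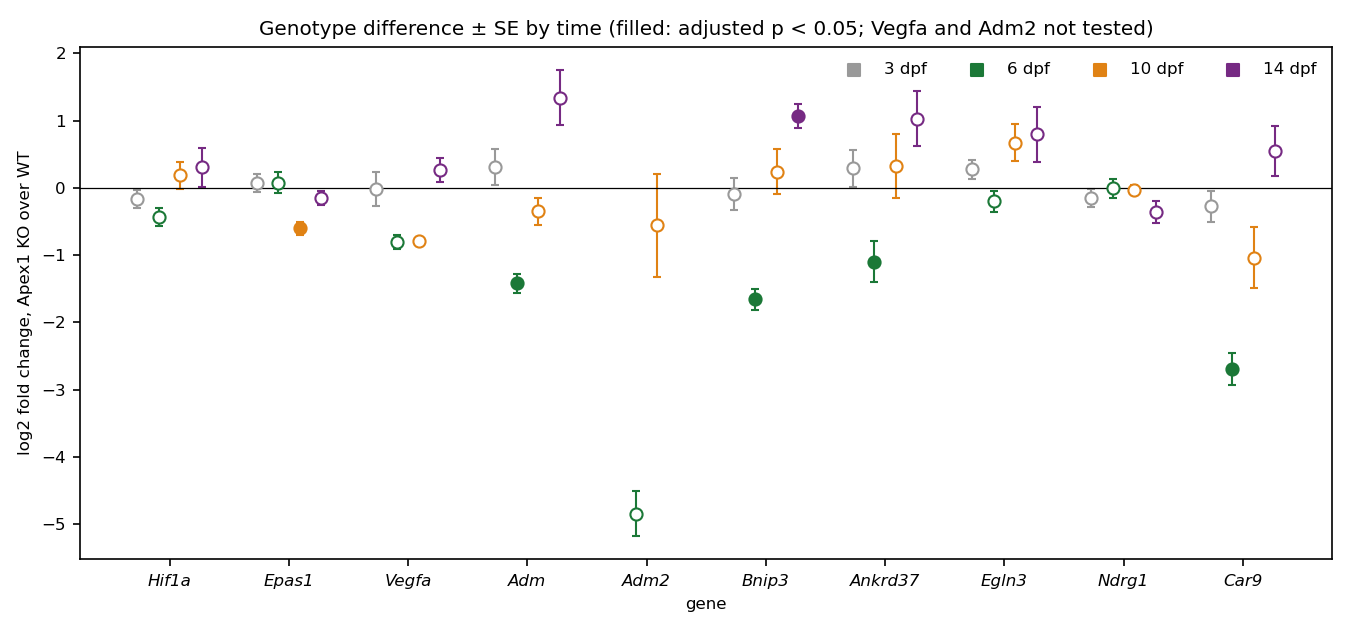
Genotype difference of each gene as the log2 fold change of Apex1 KO over WT (y axis) at 3, 6, 10 and 14 dpf (colours), with bars of 1 SE. Filled points were called at an adjusted p below 0.05, and Vegfa and Adm2 were not tested. Adm, Bnip3, Ankrd37 and Car9 are filled below 0 at 6-dpf, Epas1 at 10-dpf, and Bnip3 is filled above 0 at 14-dpf.

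Counted together, 4 of the 8 tested members were called lower at 6-dpf (Adm, Bnip3, Ankrd37 and Car9) and none higher, where 5.61% of all genes tested were called lower and 10.9% in either direction. With Vegfa and Adm2, 6 of the 10 had all Apex1 KO values below the WT values, where 11.9% of all genes did, though 2 of these 6 were chosen for it. As the list was drawn up with earlier results known, these counts are a description. At 3-dpf none of the 8 was called, as was no gene of 19866 by edgeR (1216 genes at an unadjusted p below 0.05, 85 genes by DESeq2). With the replicate number as a block 1 gene was called at 3-dpf, which was no member. Over the 8 tested members the median log2 difference was -0.77 at 6-dpf, beside 0.01 over all genes. In Apex1 KO none of the 8 was called from 3- to 6-dpf, where 14.0% of all genes were, nor from 10- to 14-dpf, where 0.259% were. Between 3- and 6-dpf, 3 of the 8 had genotype differences that changed (Adm, Bnip3 and Car9), where 1.3% of all genes did and 0.987% in that direction. Without the library labelled Apex1 KO replicate 4 at 3-dpf these 3 kept adjusted p of 0.00738, 0.0248 and 0.00395, and no member was called at 3-dpf. Between 10- and 14-dpf none of the 8 did, where 0.436% of all genes did.

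The WT library of replicate 3 at 10-dpf stood apart from the other 3 WT libraries of that time. It held the highest level of Hif1a, Adm, Adm2, Bnip3, Ankrd37, Egln3, Ndrg1 and Car9, with Bnip3 at 120 CPM beside 35.0 to 46.5 CPM in WT and 61.7, 85.8 and 74.2 CPM in Apex1 KO, and with Car9 at 6.85 CPM beside 1.46 to 3.35 CPM. Col2a1, the main cartilage collagen, was also higher there, at 25111 CPM beside 8850 to 13655 CPM. Vegfa, at 123 CPM, did not share this. Without this library Bnip3 was higher in Apex1 KO at 10-dpf by 0.74 (adjusted p = 0.0102, edgeR), in place of 0.24 (adjusted p = 0.723). Egln3 was higher by 1.06 (adjusted p = 0.0137), and Epas1 and Vegfa kept their direction. Taking out the highest WT value of Bnip3 and Egln3 raises their differences by itself, so these calls add no evidence.

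The wider pathway was described with 58 genes, the 10 members included, of which 56 were tested in the genotype comparisons. At 6-dpf 20 were called lower and 3 higher, at 10-dpf 8 and 0, at 14-dpf 7 and 2, and at 3-dpf none. Of all genes, 10.9%, 6.46% and 11.3% were called at 6-, 10- and 14-dpf, and 5.61%, 3.44% and 7.04% were called lower. Among the 23 reported HIF targets outside glucose metabolism, 12 were lower and 1 higher at 6-dpf, with a median log2 difference of -0.75. The largest falls outside the members were those of Ak4, a mitochondrial adenylate kinase, from 29.9 to 49.2 CPM in WT to 6.47 to 14.3 CPM in Apex1 KO (-1.80, SE 0.21, adjusted p = 0.00167, edgeR). P4ha2, a collagen prolyl hydroxylase, fell by 1.70 on the log2 scale and Stc2, the secreted glycoprotein stanniocalcin 2, by 1.50. The 3 genes called higher at 6-dpf were Vegfd (0.68), a ligand for lymphatic growth, Plin2 (0.45), a lipid droplet coat protein, and Pfkfb4 (0.39), a regulator of glycolysis.

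Genes for glucose uptake and glycolysis had 4 of 8 lower and 1 higher at 6-dpf. The 4 that fell, named after their values were seen, were Slc2a1, the glucose transporter GLUT1, at 87.7 to 139 CPM in WT and 32.2 to 40.9 CPM in Apex1 KO (-1.46, adjusted p = 0.0012, edgeR), Slc16a3 (-0.94), Pgk1 (-0.84) and Pdk1 (-0.66). At 10- and 14-dpf none of these 8 was called, and 7 of the 8 differences were above 0 at each time. Genes of oxygen sensing and HIF turnover had 2 of 5 lower at 6-dpf, Egln1 (-0.57) and Vhl (-0.36), also named after their values were seen. At 14-dpf Ak4 was called higher (2.25, adjusted p = 0.0145) although its groups overlapped, at 2.38 to 8.81 CPM in WT and 7.65 to 14.3 CPM in Apex1 KO. Its lowest WT value was that of replicate 1, the only WT female, on which the fit with sex rests at that time.

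**Figure D4:**
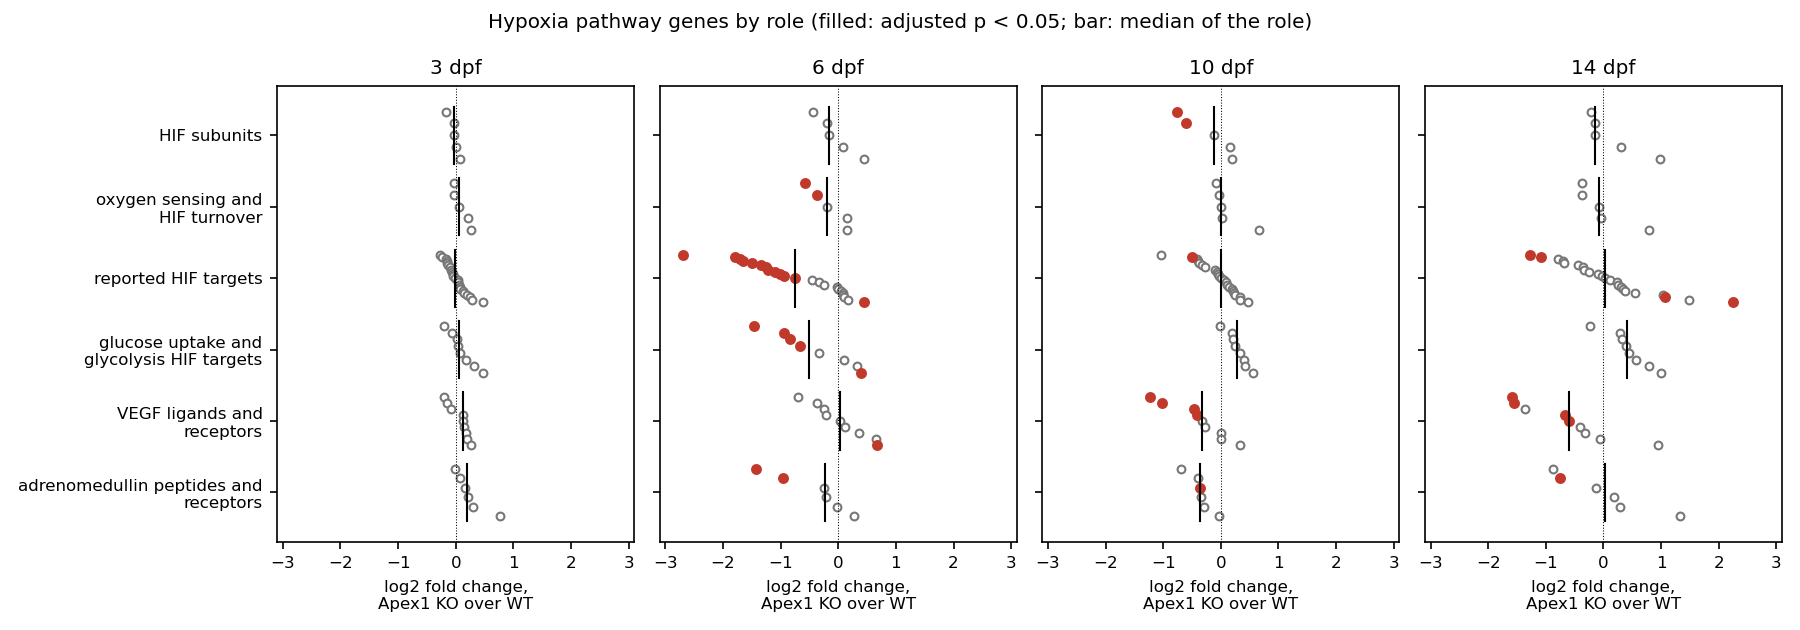
Log2 fold change of Apex1 KO over WT (x axis) of the tested hypoxia pathway genes, 1 point per gene, grouped by role in rows and by time in panels. Filled points were called at an adjusted p below 0.05 and bars mark the median of each role. At 6-dpf 12 of the 23 reported HIF targets are filled below 0, and at 10- and 14-dpf 4 of the 9 VEGF ligands and receptors are.

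Of the 9 VEGF ligands and receptors tested, 4 were lower at 10-dpf, where 3.44% of all genes were called lower, and 4 at 14-dpf, where 7.04% were. At 6-dpf none was lower and 1 higher, and the difference between times was not tested over this group. Pgf, the ligand placental growth factor, measured 10.6 to 13.2 CPM in WT and 4.40 to 5.28 CPM in Apex1 KO at 10-dpf (-1.24, SE 0.15, adjusted p = 0.00798, edgeR). At 14-dpf it measured 11.6 to 27.6 CPM and 3.56 to 4.47 CPM (-1.55, SE 0.23, adjusted p = 0.00592). The co-receptor Nrp2 fell at both times, from 1146 to 1319 CPM in WT to 350 to 516 CPM in Apex1 KO at 14-dpf (-1.59, SE 0.18, adjusted p = 0.00244), and by 1.02 at 10-dpf. In the fit with sex, the 14-dpf differences of Pgf and Nrp2 rest on WT replicate 1, the only WT female. Arnt2, a partner of HIF alpha, was lower at 10-dpf (-0.77, adjusted p = 0.0222).

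Flt1, the VEGF receptor 1, was lower at 10-dpf (-0.47, adjusted p = 0.0296, edgeR). Kdr, the main signalling receptor of VEGFA, was lower at 14-dpf, at 142 to 150 CPM in WT and 89.2 to 109 CPM in Apex1 KO (-0.60, adjusted p = 0.0255), and missed the threshold at 10-dpf (-0.32, adjusted p = 0.067). Flt4, the receptor of lymphatic growth, was lower at both times (-0.41 and -0.66). Nrp1 was not called at any time, with differences from -0.05 to 0.12. Of the adrenomedullin receptors, Calcrl, the receptor itself, was not called (-0.03 to 0.29), nor were Ramp2 (-0.29 to 0.07) and the decoy receptor Ackr3 (-0.40 to 0.19). Ramp1, which turns Calcrl toward another peptide, was lower at 10- and 14-dpf (-0.36 and -0.75), and Ramp3, which makes it an adrenomedullin receptor, was lower at 6-dpf (-0.96, adjusted p = 0.0333). The 14-dpf differences of Kdr, Flt4 and Ramp1 rest on the only WT female in the fit with sex.

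Markers of the cells in the callus moved beside these results. At 6-dpf all 6 chondrocyte markers were lower in Apex1 KO, with a summed level of 26220 to 48260 CPM in WT and 1816 to 3290 CPM in Apex1 KO, and none of them was at 0. Hypertrophic chondrocyte markers had 4 of 5 lower, at 4206 to 6664 CPM and 1220 to 1559 CPM, and osteoblast markers 5 of 6. All 6 skeletal muscle markers were higher in Apex1 KO, at 2361 to 4231 CPM in WT and 5644 to 12160 CPM in Apex1 KO, as were 5 of 6 macrophage markers. Of all genes tested at 6-dpf, 5.61% were called lower and 10.9% in either direction. None of the 6 endothelial markers was called at 6-dpf, at 535.0 to 768 CPM and 508 to 797 CPM. The part of these shifts in the fall of Vegfa, Adm, Adm2, Bnip3, Ankrd37 and Car9 was not tested.

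At 10-dpf no chondrocyte marker of 6 was called, at 13310 to 36680 CPM in WT and 7995 to 14600 CPM in Apex1 KO, while 2 of 5 hypertrophic, 4 of 6 osteoblast and 4 of 5 osteoclast markers were lower. Endothelial markers summed to 636 to 676 CPM in WT and 532 to 633 CPM in Apex1 KO, with 1 of 6 lower. At 14-dpf the chondrocyte markers of WT replicate 1, the only WT female, summed to 783 CPM, beside 3372 to 5020 CPM in the 3 WT males and 3354 to 3909 CPM in Apex1 KO. All 6 were called higher in Apex1 KO in the fit with sex. Endothelial markers summed to 724 to 807 CPM in WT and 547 to 698 CPM in Apex1 KO, with 2 of 6 lower and 1 higher. All 5 osteoclast markers were lower, at 11690 to 13260 CPM in WT and 1526 to 2930 CPM in Apex1 KO, and 3 of 6 osteoblast markers, at 70240 to 95920 CPM and 17390 to 18900 CPM. Higher in Apex1 KO were 4 of 6 neutrophil, 4 of 6 macrophage and 3 of 6 erythroid markers, while 2 macrophage markers were lower. Of all genes, 3.44% were called lower at 10-dpf, and 7.04% lower and 4.28% higher at 14-dpf. All marker calls of 14-dpf rest on the only WT female in the fit with sex. The 3 WT males of 14-dpf held 27.5 to 31.8 CPM of Bnip3, below the Apex1 KO values. As all Apex1 KO libraries of that time were female, sex and genotype cannot be told apart in that comparison. The part of the markers in the 10- and 14-dpf differences was not tested.

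**Figure D5:**
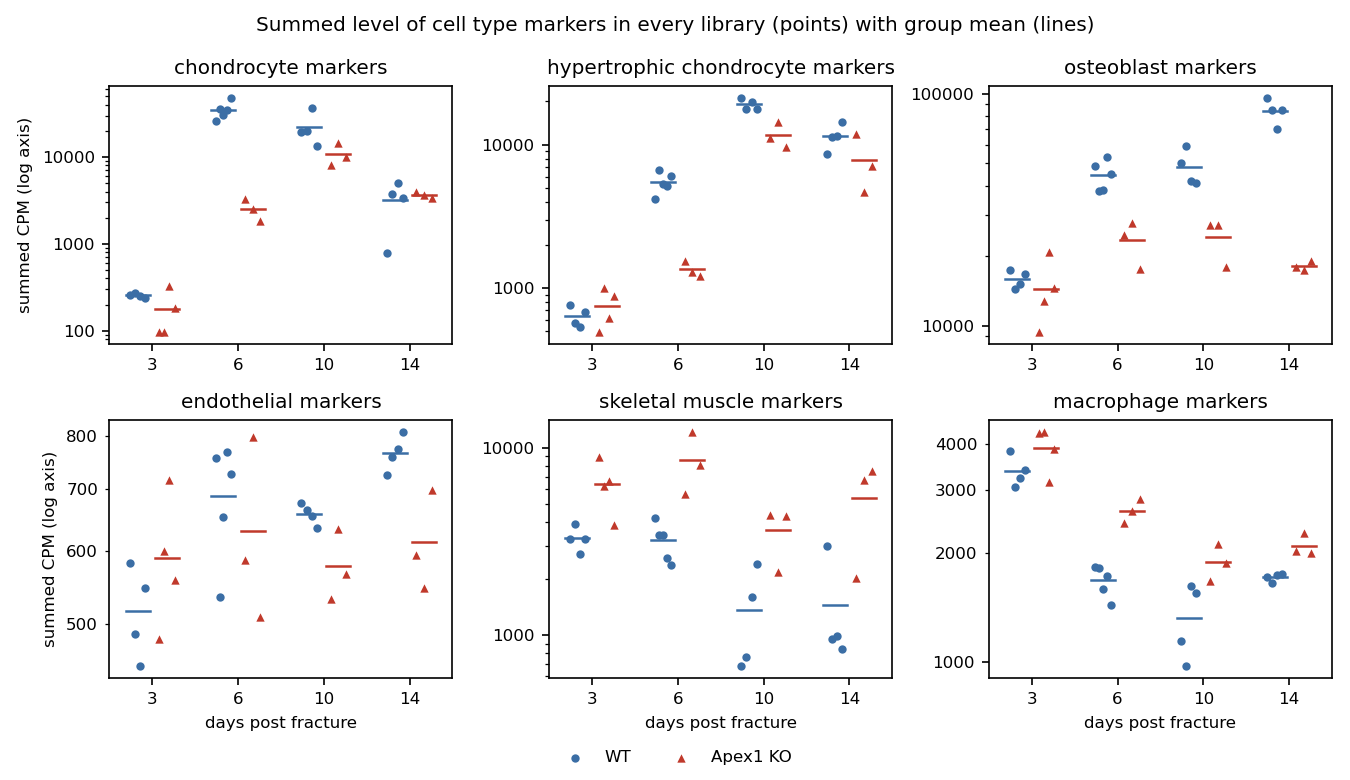
Summed level of 6 marker lists in every library in CPM (log axis) against days post fracture, with WT as blue circles, Apex1 KO as red triangles and lines at the group means. At 6-dpf the chondrocyte sums of WT (26220 to 48260 CPM) and Apex1 KO (1816 to 3290 CPM) are far apart and the endothelial sums overlap. At 14-dpf WT replicate 1 is the low chondrocyte point.

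The genes whose course over the 8 groups was most like that of a member were found among 13796 protein-coding genes by the root mean square difference of centred group means on the log2 scale. Nearest to Vegfa were Gsk3b (0.16) and Zfp599 (0.17), and nearest to Adm2 were Gpr15lg (0.62), Nkx3-2 (0.63), a transcription factor of early cartilage, and Col27a1 (0.66), a cartilage collagen. Nearest to Adm was Bnip3, another member (0.25). Nearest to Car9 was Trib3 (0.33), to Bnip3 Baiap2l1 (0.20), to Epas1 Myzap (0.07), to Ankrd37 Fads6 (0.25), to Egln3 Fam131b (0.20) and to Ndrg1 Ccdc28b (0.09). The groups share libraries between genes, so likeness is a description over these 8 means, which also span the change of sample naming between 6- and 10-dpf.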

How the data were processed

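RNA of 30 callus samples, 17 WT and 13 Apex1 KO, was sequenced as stranded total RNA libraries. Those of 3-dpf were tissue from around the fracture site. The deposited values are raw counts per Ensembl gene, which the authors made with bcl2fastq 2.20, STAR 2.7.0d and featureCounts on mm39, with no normalization. They tested with DESeq2 1.32.0.

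Here genes passing edgeR's filter on low counts were tested in R 4.3.3 with edgeR 4.0.16 (TMM, quasi-likelihood test, Benjamini-Hochberg adjustment over all genes tested), for each time with sex as a covariate. Changes in time and differences of genotype effects were fitted over 3- and 6-dpf and over 10- and 14-dpf. No test was made between 6- and 10-dpf, since the naming scheme of the samples differs. DESeq2 1.42.0 and the other settings listed in the closing section were alternatives. The fits were tested on simulated data. Symbols and starts came from GENCODE M39, which named 54749 of the 55416 IDs. Levels per kilobase used exon length.

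The members, gene lists and rules were chosen with earlier results of these data known. Named were the 10 members, Apex1, the 3 largest called changes of pathway genes in each direction and genotype comparison, the VEGF and adrenomedullin receptors, and the genes nearest in pattern among those averaging at least 1 CPM. Some of the nearest genes are not reported here. Replicates are separate samples by label, and the study counts them as calluses of mutant mice and WT littermates. No 2 replicates agreed within sampling noise. Deviations of same-numbered samples had correlations of 0.50, 0.13, 0.20 and 0.17 at 3-dpf and of -0.37 to 0.28 at the other times. At 3-dpf Apex1 KO replicates 1, 2 and 4 were each most like the WT sample of their own number. Replicate 3 (0.20) was not. At the other times only replicate 3 at 10-dpf (0.28) was. These values do not settle whether the numbers pair the samples at any time.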

Additional observations from a re-analysis of the deposited data

Results flagged for a closer look

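Among 50 sets of a member's values within a group of 4 or 5 libraries, 5 held a library far from the others. Chance flags about 1 in 20 such sets. In WT at 10-dpf, replicate 3 was far above the others for Hif1a (527.3 CPM, others 274.6 to 301.5), Bnip3 (120.3 CPM, others 35.0 to 46.51) and Adm2 (2.492 CPM, others 0.2284 to 0.5831). In WT at 14-dpf, replicate 1, the only WT female, was low for Vegfa at 67.83 CPM, beside 80.49 to 81.49 CPM. In WT at 6-dpf, replicate 5 was high for Adm2 at 8.344 CPM, beside 4.426 to 5.262 CPM.

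The genotype difference changed from 3- to 6-dpf, by edgeR's test of the difference itself, for Adm (-1.8449, SE 0.357, adjusted p = 0.0204), Bnip3 (-1.6257, SE 0.306, adjusted p = 0.0199) and Car9 (-2.4388, SE 0.307, adjusted p = 0.00167) on the log2 scale. At 6-dpf all 3 Apex1 KO libraries lay below all 5 WT libraries for these genes.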

How the results depend on the processing

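The 1802 values of the members under alternatives kept their direction and side of the threshold, or stayed within the spread where untested, in 1656 cases. The lower calls of Adm, Bnip3 and Car9 at 6-dpf held under every alternative run. Leaving out 1 library moved the count of called genes by over 1.5 times in every comparison except WT from 3- to 6-dpf, and the cause was not tested. Adm2 outside WT callus of 6-dpf rests on few counts.

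With DESeq2 the genes called were 85 at 3-dpf (0 by edgeR), 2187 at 10-dpf (1221), 718 for the difference of genotype effects between 3- and 6-dpf (267), 550 for Apex1 KO from 10- to 14-dpf (51) and 465 for the difference between 10- and 14-dpf (86). With library size alone they were 3594 at 6-dpf (2212), 433 for the first difference of effects and 8 for the second. With no filter they were 4 at 3-dpf, 217 for Apex1 KO from 10- to 14-dpf and 207 for the second difference of effects. With no sex term they were 750 at 10-dpf, 6849 at 14-dpf (2289) and 672 for Apex1 KO from 10- to 14-dpf. With all samples in one model they were 38, 6188, 410 and 507 for 3-dpf, 14-dpf, the first difference of effects and that Apex1 KO change. The split of higher and lower calls with library size alone was 849 and 464 at 10-dpf (570 and 651), 1878 and 766 at 14-dpf (865 and 1424), 1902 and 6984 for WT from 3- to 6-dpf (3159 and 3085), 788 and 1241 for WT from 10- to 14-dpf (1220 and 970), and 291 and 142 for the first difference of effects (65 and 202).

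The replicate block gave 1 gene at 3-dpf and changed no call of a member there. At 6-dpf the block gave 677 genes, at 10-dpf 1279 and at 14-dpf 3188. Deviations of same-numbered samples had correlations of 0.13 to 0.50 at 3-dpf and -0.37 to 0.28 at the other times. Whether the numbers pair the samples is therefore not known.

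Leaving out 1 library gave 0 to 10 genes at 3-dpf (10 without the library labelled Apex1 KO replicate 4, 6 without Apex1 KO replicate 1), 890 to 2359 at 6-dpf (890, 921 and 1466 without WT replicates 4, 2 and 3, 995 without Apex1 KO replicate 1) and 42 to 1827 at 10-dpf (42 and 638 without Apex1 KO replicates 1 and 3, 113 and 185 without WT replicates 1 and 2). It gave 1206 to 3773 at 14-dpf (1206, 1353 and 1277 without WT replicates 2, 3 and 4, 3773 without Apex1 KO replicate 2). WT replicate 1 of 14-dpf could not be left out, as the only WT female. The ranges were 1223 to 3258 for Apex1 KO from 3- to 6-dpf, 104 to 450 for the first difference of effects, 1162 to 2760 for WT from 10- to 14-dpf, 0 to 252 for Apex1 KO from 10- to 14-dpf and 2 to 206 for the second difference of effects.

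Every tested log2 difference that changed sign had missed the threshold as reported. Of the untested ones, Vegfa at 3-dpf ranged from -0.2648 to 0.1392, Adm2 at 10-dpf from -1.227 to 0.4753 and Adm2 in Apex1 KO from 10- to 14-dpf from -1.414 to 0.04106. With library size alone they were 0.1814 (6-dpf) and 0.04253 (10-dpf) for Ndrg1, 0.1175 for Epas1 at 14-dpf, 0.1885 for Epas1 and 0.007169 for Ndrg1 in the first and second difference of effects, and 0.0521 for Adm and 0.04023 for Bnip3 in Apex1 KO from 10- to 14-dpf. With no sex term they were -0.001986 for Epas1 at 6-dpf, 0.01043 for Ndrg1 at 10-dpf and -0.1394 for Hif1a in the second difference of effects. With the replicate block Ndrg1 was 0.03743 at 6-dpf and 0.02182 at 10-dpf. Egln3 in WT from 3- to 6-dpf was 0.004476 with DESeq2, 0.004723 with its size factors and 0.01385 with all samples in one model.

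Without 1 library the ranges were, at 3-dpf, -0.1754 to 0.1787 for Epas1 and -0.2908 to 0.04901 for Bnip3. At 6-dpf they were -0.1227 to 0.1841 for Epas1 and -0.1563 to 0.158 for Ndrg1. At 10-dpf they were -0.02799 to 0.378 for Hif1a, -0.06478 to 0.7373 for Bnip3, -0.5688 to 0.6964 for Ankrd37 and -0.08202 to 0.003375 for Ndrg1. For WT from 3- to 6-dpf they were -0.1188 to 0.03754 for Hif1a and -0.1223 to 0.1025 for Egln3, and from 10- to 14-dpf -0.1356 to 0.01092 for Epas1, -0.5759 to 0.05887 for Ankrd37 and -0.4149 to 0.3498 for Egln3. For Apex1 KO from 10- to 14-dpf they were -0.4178 to 0.0809 for Hif1a, -0.2695 to 0.2131 for Adm and -0.2787 to 0.124 for Bnip3. In the first difference of effects they were -0.2418 to 0.09758 for Epas1 and -0.04913 to 0.1754 for Ndrg1, and in the second -0.04454 to 1.107 for Egln3 and -0.2829 to 0.068 for Ndrg1.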
